A study of Rattus norvegicus with 16 samples.

Results

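The enzymes and enzyme subunits that carry out glycolysis and that build and break down glycogen were followed in a rat shoulder muscle after it was torn and its nerve removed. The set holds 38 genes. They were taken by symbol, as enzymes of these pathways, from a table of 17147 genes. Each of the 38 symbols was found in the table, and 36 of the genes had enough fragments to be tested, among 11658 tested genes. Phkg2, a liver and testis catalytic subunit of phosphorylase kinase, and Ppp1r3c, a glycogen-targeting subunit of protein phosphatase 1, were listed at 0 in all 16 libraries and have no further values. Ppp1r3c is known as a transcript of skeletal muscle, and whether these zeros come from the annotation or the counting was not tested, so they are not read as absence.

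The muscle was the supraspinatus, part of the rotator cuff, from Sprague Dawley rats, and messenger RNA was sequenced. The 4 groups hold 4 libraries each: unoperated muscle (0 days), and muscle 10, 30 and 60 days after the supraspinatus was torn through its full thickness on both sides, an injury combined with suprascapular neurectomy, the removal of nerve that supplies this muscle. Every injured rat had the tear and the neurectomy together, so the effect of one cannot be told apart from that of the other, and no sham-operated group is among the samples used here. Age, sex and which libraries came from the same rat are not given, so p-values measure the spread between these libraries, part of which may be technical. The tissue is bulk muscle, in which fewer cells of a type and less RNA per cell cannot be told apart.

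Glycolysis splits glucose into pyruvate, which lactate dehydrogenase turns into lactate, and it supplies ATP quickly in fast-contracting muscle fibres. Glycogen is the glucose store of the fibre: glycogen synthase and the branching enzyme extend it, and glycogen phosphorylase, switched on by phosphorylase kinase during contraction, releases glucose 1-phosphate from it. Several steps are run by isoforms from separate genes, 1 of them made mainly in muscle fibres (Eno3, Pgam2, Pfkm, Pygm) and others made in many tissues (Eno1, Pgam1, Pfkp, Pfkl) or in brain and liver (Pygb, Pygl).

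Library totals ran from 17.2 to 39.9 M fragments (M, mega), and all 4 libraries at 60 days lay below every other library. Levels are given as CPM, the fragments of a gene per 1 M fragments, after TMM scaling, a library scaling that assumes that most genes do not change. A count of 3 fragments, the smallest taken as a signal, corresponds on this scale to 0.0712 CPM in the largest library and 0.175 CPM in the smallest. At 30 days replicate 1 was the lowest of its group for 24 of the 36 tested genes and replicate 3 the highest for 22. The summed level of 9 muscle fibre markers (Ckm, Acta1, Tnnt3, Actn3, Myh4, Myh1, Myh2, Pvalb and Atp2a1) followed the same order there, at 88747 CPM in replicate 1 and 137185 CPM in replicate 3. Fold changes compare a gene with itself. No gene lengths were used here, so levels are not compared between genes.

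Most of the glycolytic and glycogen genes were lower after injury, and the median fall was deepest at 10 days. Of the 36 tested genes, 26 were lower at 10 than at 0 days, where 29.4% of all tested genes were called lower. Higher calls numbered 3 (Pfkl, Phka2 and Gbe1), beside 33.3% of all tested genes. At 30 days 26 were lower (30.9% of all tested genes) and 6 higher (33.7%), and at 60 days 24 were lower (29.1%) and 6 higher (29.9%). A call is an adjusted p under 0.05 in edgeR's quasi-likelihood test, with Benjamini-Hochberg adjustment over all tested genes. Between 10 and 60 days 24 of the 36 rose, beside 29.1% of all tested genes, and 5 fell (Pfkl, Phka1, Phka2, Phkb and Gbe1), beside 31.9%.

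The median log2 fold change of the 36 genes was -1.31 at 10 days, -1.05 at 30 days and -0.63 at 60 days against 0 days, and 0.65 for 60 against 10 days. The same medians over all tested genes were 0.061, 0.046, 0.040 and -0.0074. Scaled by library totals alone, which moves the median of all genes to 0.72, 0.54 and 0.45 at 10, 30 and 60 days, 22 of the 36 were lower and 11 higher at 10 days, 22 and 10 at 30 days, and 17 and 11 at 60 days. Of all tested genes, that scaling called 10.1%, 11.9% and 12.1% lower and 70.05%, 63.1% and 57.8% higher at the same times. With it 20 of the 36 rose and 6 fell between 10 and 60 days, beside 17.7% and 45.5% of all tested genes. Without replicate 1 of the 30-day group, 26 genes were lower and 5 higher at 30 days, and the same numbers were found without replicate 3.

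There were 23 genes called lower at all 3 times, and 0 called higher at all 3 by edgeR, as well as 0 at an unadjusted p under 0.05 and 0 by DESeq2. A set of 20 genes was lower at 10 days and then rose from 10 to 60 days, and 17 of these were still below unoperated muscle at 60 days. Phkb was the only gene lower at 10 days that fell again from 10 to 60 days. The share of all tested genes with each pattern was not computed. These counts, and those with library totals that follow, therefore have no background to be read against. With library totals these counts were 15 lower at all 3 times, 9 higher at all 3 (Aldoc, Eno1, Gbe1, Pfkfb2, Pfkl, Pgam1, Phka2, Pygb and Pygl), 17 lower at 10 days with a later rise, 10 of these still lower at 60 days, and 0 for the pattern of Phkb. With the fragments counted directly and no scaling beyond the library total, the 38 genes supplied 8.23% ± 0.170 (SD, n = 4) of all fragments in unoperated muscle, 2.75% ± 0.210 at 10 days, 4.08% ± 0.856 at 30 days and 5.48% ± 0.723 at 60 days. Libraries of unoperated muscle, at 8.09 to 8.48%, lay above every injured library, the highest of which was at 6.18%. The 16 enzymes that run from glucose 6-phosphate to lactate made up most of it, with 6.34% ± 0.199 of all fragments at 0 days and 1.95% ± 0.164 at 10 days.

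**Figure D1:**
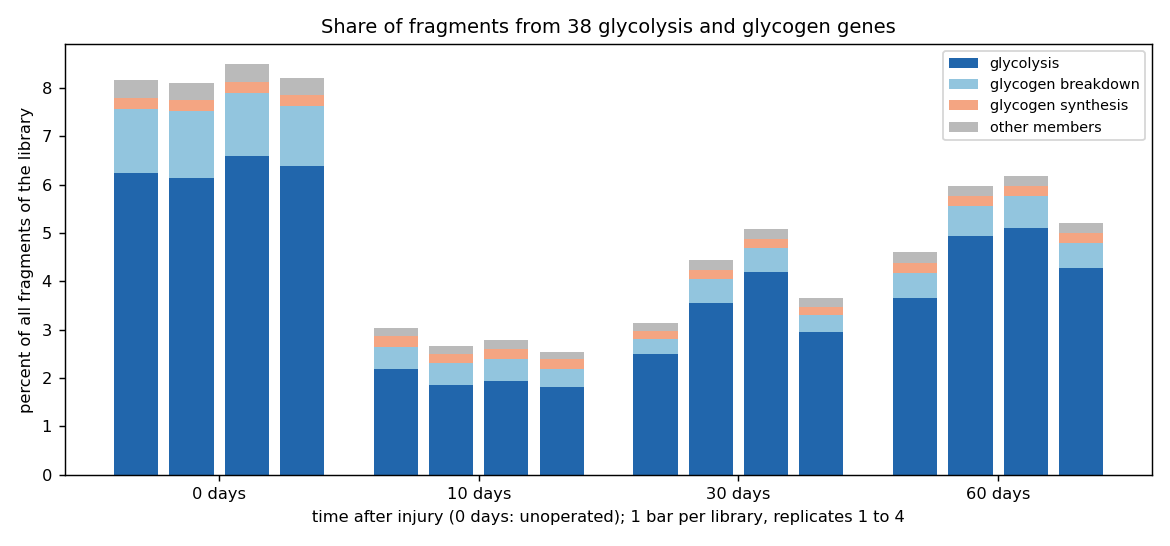
Percent of each library's fragments from the 38 genes (vertical axis), 1 bar per library, stacked by role and grouped by time after injury. The unoperated bars reach 8.09 to 8.48%, the 10-day bars 2.54 to 3.03%, the 30-day bars 3.14 to 5.08% and the 60-day bars 4.60 to 6.18%.

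**Figure D2:**
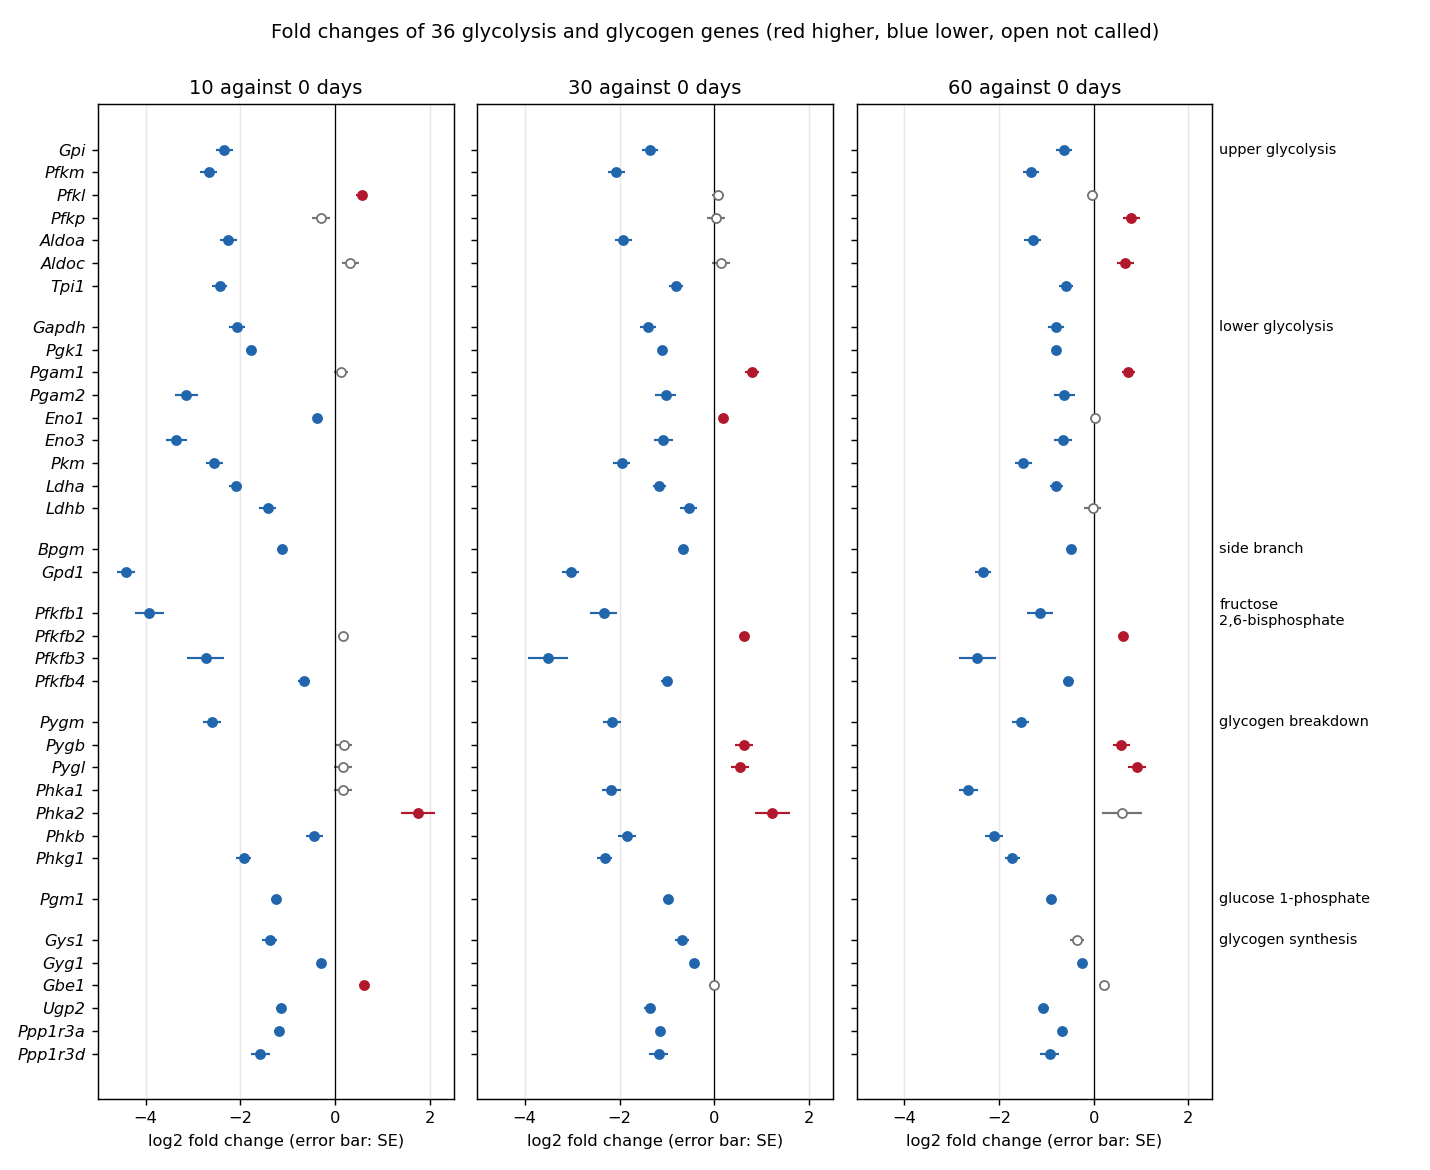
Log2 fold change against unoperated muscle (horizontal axis, error bars SE) of the 36 tested genes at 10, 30 and 60 days, ordered by role. Blue points are called lower, red points called higher and open points not called, with 26, 26 and 24 blue points in the panels from left to right.

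Against unoperated muscle, most muscle isoforms were called lower, while most calls of the other isoforms of the same enzymes were higher. From 10 to 60 days, 4 of 6 muscle isoforms and 4 of 7 other isoforms rose, beside 29.1% of all tested genes. With library totals 4 and 3 rose, beside 17.7%. Of the 6 muscle isoforms (Pfkm, Pgam2, Eno3, Pygm, Phka1 and Phkg1), 5 were lower at 10 days and all 6 at 30 and 60 days, with median log2 fold changes of -2.63, -2.11 and -1.43. Of the 7 other isoforms tested (Pfkl, Pfkp, Pgam1, Eno1, Pygb, Pygl and Phka2), 2 were higher and 1 lower at 10 days, 5 higher and 0 lower at 30 days, and 4 higher and 0 lower at 60 days. With library totals 5, 6 and 4 of the 6 muscle isoforms were lower at the 3 times, with Phka1 higher at 10 days. Under that scaling 6, 7 and 7 of the 7 other isoforms were higher at 10, 30 and 60 days and 0 lower, beside the shares of all tested genes given above for each scaling. The 0 lower calls at 30 and 60 days were also 0 at an unadjusted p under 0.05 and 0 by DESeq2. Medians of the other isoforms were 0.16, 0.54 and 0.60 at the 3 times. At 10 days the higher genes were Pfkl and Phka2 and the lower one Eno1, whose direction turned to 0.27 with library totals. Phka2 had few fragments and was tested only through injured libraries, as given below. Those higher at 30 days were Pgam1, Eno1, Pygb, Pygl and Phka2, and those higher at 60 days Pfkp, Pgam1, Pygb and Pygl.

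Upstream sequences are printed for 2 pairs, those of enolase and phosphoglycerate mutase, which are next to each other in lower glycolysis. The 250 bases before the annotated start of each gene are given, from RefSeq on GRCr8 and read 5' to 3' on the gene's strand. Capitals mark matches to CANNTG, the E-box bound by myogenic factors, and to ACGTG or GCGTG, the core bound by hypoxia-inducible factors, on either strand.
Pgam2 (chr14:84897875-84898124, minus strand): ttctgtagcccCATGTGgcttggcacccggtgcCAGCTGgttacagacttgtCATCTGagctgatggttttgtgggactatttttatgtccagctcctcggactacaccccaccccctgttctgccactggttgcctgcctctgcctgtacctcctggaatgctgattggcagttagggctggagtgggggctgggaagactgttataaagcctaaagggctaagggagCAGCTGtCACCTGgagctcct
Pgam1 (chr1:250672902-250673151, plus strand): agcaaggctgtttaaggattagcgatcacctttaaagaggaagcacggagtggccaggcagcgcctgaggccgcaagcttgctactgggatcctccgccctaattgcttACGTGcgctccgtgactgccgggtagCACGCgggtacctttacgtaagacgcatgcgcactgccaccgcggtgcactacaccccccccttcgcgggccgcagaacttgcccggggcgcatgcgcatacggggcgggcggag
Eno3 (chr10:55868936-55869185, plus strand): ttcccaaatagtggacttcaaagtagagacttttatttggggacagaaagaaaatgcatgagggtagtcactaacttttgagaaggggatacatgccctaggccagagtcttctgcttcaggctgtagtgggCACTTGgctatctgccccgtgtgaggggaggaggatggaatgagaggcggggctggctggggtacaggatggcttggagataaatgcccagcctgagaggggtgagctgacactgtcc
Eno1 (chr5:166002617-166002866, plus strand): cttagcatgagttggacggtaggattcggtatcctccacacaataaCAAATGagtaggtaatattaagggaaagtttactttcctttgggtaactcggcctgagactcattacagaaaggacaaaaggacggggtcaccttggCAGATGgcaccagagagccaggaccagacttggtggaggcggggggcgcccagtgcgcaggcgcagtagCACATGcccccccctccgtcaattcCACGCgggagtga
The Pgam2 window holds 5 E-box matches and no match to the ACGTG or GCGTG core, while the Pgam1 window holds 0 E-box and 2 core matches. The Eno3 window holds 1 E-box and 0 core matches, and the Eno1 window holds 3 and 1. RefSeq lists a second Eno1 start, whose window holds 0 and 1. In the third pair, whose windows are not printed, that of the muscle gene Pfkm holds 0 E-box and 1 core match. The Pfkp window holds 1 and 1. Of the other muscle isoforms, the Pygm window holds 3 and 2, that of Phka1 2 and 1, and that of Phkg1 3 and 1. Among the other isoforms, Pfkl and Pygl hold 2 and 2 each, and Pygb, Phka2 and Phkg2 hold 0 and 1 each. Lack of the core, as in Pgam2 and Eno3, is thus not shared by the other muscle isoforms.

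Over the 40 windows listed for 36 of the 38 genes, 28 hold the ACGTG or GCGTG core, as do 36.7% of 33469 rat promoter windows of this length. An E-box match is held by 23 of the 40 (57.5%) and by 65.5% of all windows. The 2 windows with a MEF2 site, named for a factor active in muscle, belong to Aldoa and Ppp1r3a and make 5.0% of the 40, beside 1.68% of all windows. The motifs were searched on both strands and may overlap. A match describes letters in a window and is not evidence of binding.

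Eno3 encodes the beta-enolase of muscle fibres. Its levels were 11300.2, 11391, 12963 and 11585 CPM at 0 days, 1402, 989, 1079.7 and 1172 at 10 days, 3687, 6215, 7894 and 4624 at 30 days and 5842, 8513, 8915 and 6999 at 60 days, by replicate. All 4 libraries at 10 days lay far below the rest, and none of the injured libraries reached the unoperated range. The 10-day mean was 9.83% of the unoperated mean. Against unoperated muscle the log2 fold change was -3.35 ± 0.21 (SE; edgeR adjusted p 2.02e-09) at 10 days, -1.08 ± 0.20 (SE; edgeR adjusted p 0.000177) at 30 days and -0.64 ± 0.20 (SE; edgeR adjusted p 0.0102) at 60 days, although with library totals the last was -0.23 with an edgeR adjusted p of 0.251. Between 10 and 60 days Eno3 rose by 2.71 ± 0.21 (adjusted p 3.98e-08).

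Eno1 encodes alpha-enolase, made in most tissues. Its levels were 201, 215, 205 and 183 CPM at 0 days, 159.6, 144, 157 and 153 at 10 days, 221, 210.0, 242 and 246 at 30 days and 192, 199.6, 218 and 209 at 60 days. The groups overlap except at 10 days, where the 4 libraries were the lowest. In log2 terms the change was -0.39 ± 0.07 (SE; edgeR adjusted p 0.000189) at 10 days, which turned to 0.27 with library totals (adjusted p 0.00508). The estimate of 0.19 ± 0.07 (SE; edgeR adjusted p 0.027) at 30 days was called by a narrow margin: the call was lost without replicate 4 at 0 days, without replicate 3 at 30 days and without replicate 4 at 30 days, at log2 fold changes of 0.16 to 0.17 and adjusted p of 0.0733 to 0.0900. This call was also lost with RLE factors (0.16, adjusted p 0.0525), without the low-count filter (0.18, adjusted p 0.0507) and in the fit of the 2 groups (0.19, adjusted p 0.0512). Eno1 was not called at 60 days, at 0.03 ± 0.07 (adjusted p 0.771), and was 0.44 and called with library totals (adjusted p 0.000158).

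Pgam2 encodes the muscle phosphoglycerate mutase. Its levels were 4536, 4209, 5290.4 and 4742 CPM at 0 days, 698, 455, 456 and 525 at 10 days, 1300.4, 2636, 3312 and 1981 at 30 days and 2513, 3365, 3311 and 3038 at 60 days. As for Eno3, the 10-day libraries formed the lowest group and no injured library reached the unoperated range. The log2 fold change was -3.14 ± 0.24 (SE; edgeR adjusted p 1.23e-08) at 10 days, -1.02 ± 0.22 (SE; edgeR adjusted p 0.000713) at 30 days and -0.62 ± 0.22 (SE; edgeR adjusted p 0.0228) at 60 days, and Pgam2 rose by 2.52 ± 0.23 between 10 and 60 days (adjusted p 1.99e-07). The 60-day call was lost without replicate 3 or 4 at 0 days and without replicate 1 or 4 at 60 days, at log2 fold changes of -0.60 to -0.54 and adjusted p of 0.05004 to 0.0712. It was also lost with upper-quartile factors, at -0.48 (adjusted p 0.0759), and with library totals, at -0.21 (adjusted p 0.361).

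Pgam1, the form found in most tissues, was higher at 30 and 60 days. Its levels were 52.1, 66.9, 58.7 and 40.1 CPM at 0 days, 60.8, 58.3, 53.6 and 65.0 at 10 days, 87.8, 116, 93.3 and 79.9 at 30 days and 102, 96.1, 81.6 and 81.6 at 60 days. The 10-day libraries overlap the unoperated ones, and all libraries at 30 and 60 days lie above them. Against unoperated muscle the log2 fold change was 0.13 ± 0.14 (SE; edgeR adjusted p 0.449) at 10 days, 0.79 ± 0.14 (SE; edgeR adjusted p 0.000132) at 30 days and 0.73 ± 0.14 (SE; edgeR adjusted p 0.000358) at 60 days. With library totals it was also called at 10 days, at 0.78 (adjusted p 3.71e-05).

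Phosphofructokinase commits sugar to glycolysis, and its muscle subunit is encoded by Pfkm. Its levels were 5946, 6280.1, 5945 and 6480.1 CPM at 0 days, 1139, 891, 982 and 883 at 10 days, 1043, 1731, 1798 and 1314 at 30 days and 1948, 2773, 3062 and 2122 at 60 days. All injured libraries lay below the unoperated ones, and the 60-day libraries above the 10-day ones. In log2 terms the change was -2.66 ± 0.18 (SE; edgeR adjusted p 3.20e-09) at 10 days, -2.07 ± 0.17 (SE; edgeR adjusted p 4.73e-08) at 30 days and -1.32 ± 0.17 (SE; edgeR adjusted p 7.60e-06) at 60 days.

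Pfkp, the platelet-type subunit, was scarce in these libraries. Its levels were 2.31, 3.89, 3.12 and 2.25 CPM at 0 days, 2.47, 2.20, 2.04 and 2.83 at 10 days, 2.91, 3.56, 2.48 and 2.98 at 30 days and 5.03, 4.09, 5.73 and 5.47 at 60 days. Only the 60-day libraries lay clear of the unoperated ones. The log2 fold change was -0.29 ± 0.19 (SE; edgeR adjusted p 0.199) at 10 days, which turned to 0.37 with library totals (adjusted p 0.0943), 0.04 ± 0.19 (SE; edgeR adjusted p 0.87) at 30 days and 0.80 ± 0.19 (SE; edgeR adjusted p 0.00178) at 60 days. With library totals the 30-day value was called, at 0.53 (adjusted p 0.0209). Pfkl, the liver-type subunit, was higher at 10 days, at 0.57 ± 0.12 (SE; edgeR adjusted p 0.000435), and its 60-day estimate of -0.02 ± 0.12 turned to 0.39 with library totals (adjusted p 0.0112), which also called it at 30 days (0.57, adjusted p 0.000502).

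**Figure D3:**
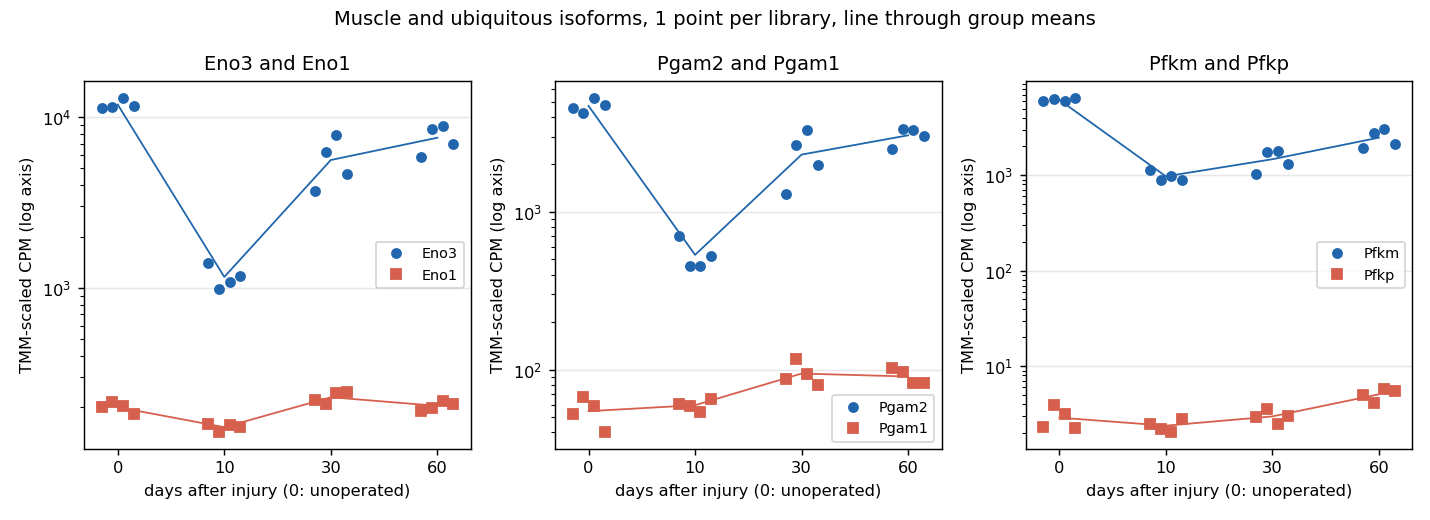
Levels of the 3 isoform pairs in TMM-scaled CPM (log axis) at 0, 10, 30 and 60 days, drawn at equal spacing. Each point is 1 library, lines join group means, and the muscle isoforms Eno3, Pgam2 and Pfkm are lower in every injured library than in any unoperated one.

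A ratio of 2 genes within a library does not depend on how libraries are scaled. Within libraries the log2 ratio of Eno3 to Eno1, from fragment counts with 0.5 added and not corrected for gene length, was 5.82, 5.73, 5.98 and 5.99 at 0 days, 3.13, 2.78, 2.78 and 2.94 at 10 days, 4.06, 4.89, 5.03 and 4.23 at 30 days and 4.93, 5.41, 5.36 and 5.07 at 60 days. It changed by -2.97 ± 0.11 (SE) at 10 days, a 7.84-fold smaller ratio, by -1.33 at 30 days and by -0.69 at 60 days. In each of these comparisons the 4 libraries of one group lay apart from the 4 of the other, which gives the smallest p of the two-sided exact permutation test, 0.0286 (0.0327 after Benjamini-Hochberg adjustment over 40 ratio tests).

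The log2 ratio of Pgam2 to Pgam1 was 6.44, 5.98, 6.49 and 6.88 at 0 days, 3.52, 2.96, 3.09 and 3.01 at 10 days, 3.89, 4.50, 5.15 and 4.63 at 30 days and 4.62, 5.13, 5.34 and 5.22 at 60 days. It changed by -3.30 ± 0.23 at 10 days, -1.91 at 30 days and -1.37 at 60 days, each with an exact permutation p of 0.0286. From 10 to 60 days the Eno3 to Eno1 ratio regained 2.28 and the Pgam2 to Pgam1 ratio 1.93, also at p = 0.0286 in the exact test. Neither returned to the unoperated range.

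Within libraries the log2 ratio of Pfkm to Pfkp was 11.32, 10.65, 10.88 and 11.48 at 0 days, 8.84, 8.65, 8.90 and 8.28 at 10 days, 8.48, 8.92, 9.49 and 8.78 at 30 days and 8.59, 9.39, 9.05 and 8.59 at 60 days. It changed by -2.41 ± 0.24 at 10 days, -2.16 at 30 days and -2.17 at 60 days (exact permutation p 0.0286 each). Between 10 and 60 days the difference was 0.24 ± 0.24, within the spread of the libraries (exact permutation p 0.371, adjusted 0.391). Over the 10 pairs with values, 35 of 40 tests reached p = 0.0286 in the exact test. The other 5 were all comparisons of 60 with 10 days, for Pfkm/Pfkp, Ldha/Ldhb, Pygm/Pygb, Pygm/Pygl and Gys1/Pygm.

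**Figure D4:**
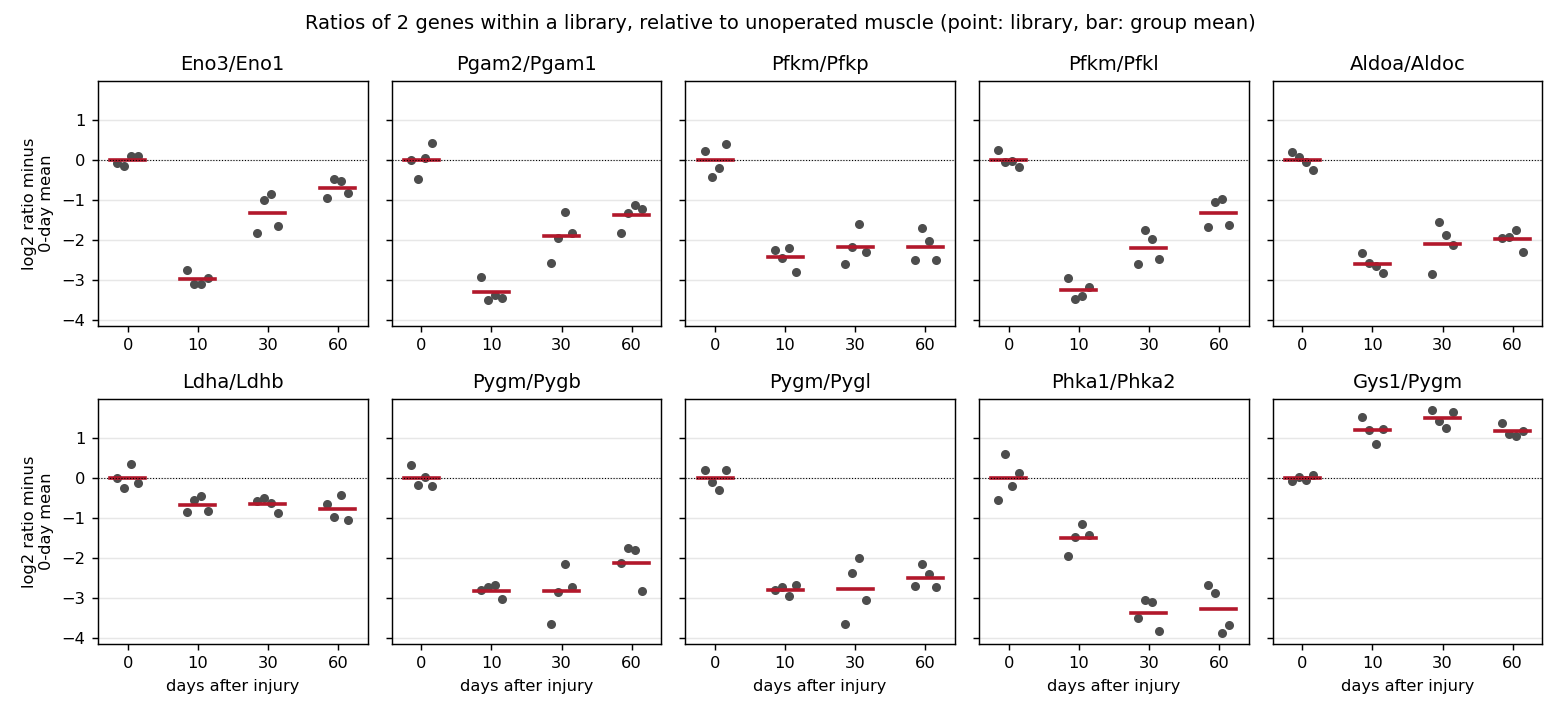
Log2 ratio of 2 genes within a library minus the mean of the unoperated libraries (vertical axis) at 0, 10, 30 and 60 days, drawn at equal spacing, for 10 pairs. Points are libraries and red bars group means: Eno3/Eno1 falls by 2.97 at 10 days and Pgam2/Pgam1 by 3.30, and both regain part by 60 days, while Gys1/Pygm lies above 0 at all 3 times after injury.

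In upper glycolysis, which takes glucose 6-phosphate to the triose phosphates, 4 of 7 genes were lower at each time: Gpi, Pfkm, Aldoa and Tpi1. The median log2 fold change of the 7 was -2.25, -0.80 and -0.58 at 10, 30 and 60 days. Pfkl was higher at 10 days, and Pfkp and Aldoc at 60 days. With library totals 4, 4 and 2 of the 7 were lower and 2, 3 and 3 higher. Counts by role, here and below, stand beside the shares of all tested genes called at the same times, given above for each scaling. Gpi, glucose-6-phosphate isomerase, fell from 1522 ± 40.4 CPM (SD, n = 4) in unoperated muscle to 301 ± 40.5 CPM at 10 days, a log2 fold change of -2.34 ± 0.18 (1.23e-08). Here and below the value after an edgeR log2 fold change is its SE, and the one in parentheses the adjusted p. Tpi1, triose phosphate isomerase, had 4042 ± 301 CPM at 0 days, 749.8 ± 119 CPM at 10 days and 2713 ± 204 CPM at 60 days, and rose by 1.86 ± 0.15 (7.19e-08) between 10 and 60 days. With library totals the 60-day estimates of both genes missed the threshold, at -0.21 for Gpi and -0.17 for Tpi1.

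Aldoa, the muscle aldolase, changed by -2.25 ± 0.19 (2.57e-08) at 10 days, -1.92 ± 0.18 (1.90e-07) at 30 days and -1.29 ± 0.18 (1.65e-05) at 60 days. Aldoc, the brain-type aldolase, was called against 0 days at 60 days, from 2.48 ± 0.441 to 3.96 ± 0.549 CPM, at 0.67 ± 0.19 (0.00551). With library totals it was called at 10 days too, at 0.98 (0.000196), and at 30 days, at 0.63 (0.00845). The log2 ratio of Aldoa to Aldoc changed by -2.58 ± 0.14 at 10 days and by -1.97 ± 0.15 at 60 days, with an exact permutation p of 0.0286 at both.

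In lower glycolysis 8 of 9 genes were lower at 10 days, all but Pgam1, and 9 of 9 rose between 10 and 60 days, of which Eno1 was not called with library totals (0.16). At 30 days 7 were lower and 2 higher (Pgam1 and Eno1), and at 60 days 6 were lower and 1 higher (Pgam1). The median log2 fold changes were -2.08, -1.08 and -0.64 at the 3 times. With library totals 7, 6 and 4 of the 9 were lower and 2, 2 and 3 higher, beside the shares of all tested genes given above. Gapdh, which makes the first reduced NADH of the pathway, fell from 21551 ± 677 CPM to 5107 ± 324 CPM at 10 days, -2.08 ± 0.17 (2.41e-08), and was at 12444 ± 2470.1 CPM at 60 days, -0.79 ± 0.16 (0.000641). Pgk1, phosphoglycerate kinase, changed by -1.78 ± 0.10 (5.84e-10) at 10 days and -0.79 ± 0.10 (4.37e-06) at 60 days. Pkm, the pyruvate kinase gene whose splice forms were not separated here, changed by -2.55 ± 0.18 (4.86e-09) and -1.48 ± 0.17 (2.54e-06).

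Ldha and Ldhb encode the 2 common subunits of lactate dehydrogenase, the first favoured in fast muscle and the second in heart. Ldha changed by -2.10 ± 0.14 (3.70e-09) at 10 days, -1.16 ± 0.14 (2.29e-06) at 30 days and -0.78 ± 0.14 (0.000155) at 60 days. Ldhb changed by -1.42 ± 0.18 (3.16e-06) at 10 days and -0.54 ± 0.17 (0.0115) at 30 days, and its 60-day estimate of -0.02 ± 0.17 (0.927) was not called and turned to 0.39 (adjusted p 0.0466) with library totals. The 30-day call of Ldhb was lost with library totals, at -0.061 (adjusted p 0.748). Within libraries the log2 ratio of Ldha to Ldhb changed by -0.66 at 10 days, -0.63 at 30 days and -0.77 at 60 days (exact permutation p 0.0286 each), and between 10 and 60 days it differed by -0.11 ± 0.18 (exact permutation p 0.571). Gapdh, Pgam1, Ldha, Eno1, Tpi1, Aldoa, Pgk1 and Pkm belong to families with many near-identical processed copies in rodent genomes, so their fragment counts are uncertain where the counting split such copies.

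Gpd1, the cytoplasmic glycerol 3-phosphate dehydrogenase that draws triose phosphate out of glycolysis towards glycerolipid and the glycerol phosphate shuttle, showed the deepest fall of the 36 genes at 10 days. Its levels were 1623, 1616, 1599.9 and 1556 CPM at 0 days, 79.6, 77.1, 71.8 and 72.3 at 10 days, 121, 234, 266 and 163 at 30 days and 317, 315, 323 and 310.1 at 60 days. No injured library came near the unoperated range, and the 10-day libraries were the lowest. The 10-day mean was 4.70% of the unoperated mean, at a log2 fold change of -4.41 ± 0.19 (6.29e-11), against -3.03 ± 0.18 (1.34e-09) at 30 days and -2.34 ± 0.17 (2.73e-08) at 60 days. Bpgm, which makes 2,3-bisphosphoglycerate, changed by -1.12 ± 0.11 (1.10e-07), -0.65 ± 0.10 (4.37e-05) and -0.48 ± 0.10 (0.000909). With library totals its later values were -0.17 and -0.075 and were not called.

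The Pfkfb enzymes make and remove fructose 2,6-bisphosphate, the activator of phosphofructokinase. Of the 4 genes, 3 were lower at every time after injury, beside 29.4%, 30.9% and 29.1% of all tested genes. Pfkfb1, which has a muscle transcript, had levels of 193, 167, 180.1 and 204 CPM at 0 days, 17.1, 9.89, 11.3 and 10.8 at 10 days, 17.4, 48.5, 50.6 and 31.3 at 30 days and 53.4, 99.6, 106 and 81.4 at 60 days. The 10-day libraries were the lowest and the gene then rose more than any other tested enzyme of the set, by 2.79 ± 0.30 (1.33e-06) between 10 and 60 days, from -3.92 ± 0.31 (3.31e-08) at 10 days to -1.13 ± 0.28 (0.00258) at 60 days.

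Pfkfb3, an inducible form with high kinase activity, stayed low. Its levels were 63.4, 17.3, 107 and 50.9 CPM at 0 days, 9.49, 6.83, 13.1 and 6.55 at 10 days, 7.01, 4.63, 4.60 and 4.70 at 30 days and 8.99, 12.2, 10.5 and 11.96 at 60 days. All injured libraries lay below the unoperated ones, and the 60-day libraries overlap those at 10 days. Its fall at 30 days, -3.51 ± 0.42 (3.15e-06), was the largest of the set at that time, and its difference between 60 and 10 days was 0.28 ± 0.39 (0.561).

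Pfkfb4 changed by -0.65 ± 0.12 (0.000157) at 10 days, which became 0.0041 and was not called with library totals, by -1.01 ± 0.12 (2.38e-06) at 30 days, and by -0.53 ± 0.12 (0.00124) at 60 days, which was not called with library totals (-0.13). Pfkfb2, the heart-type form, was not called at 10 days, at 0.17 ± 0.10 (0.16), but was with library totals, at 0.83 (4.36e-06), and was higher at 30 days, 0.62 ± 0.10 (5.03e-05), and at 60 days, 0.61 ± 0.10 (8.45e-05).

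Among the genes of glycogen breakdown, 7 of 8 could be tested. Lower genes numbered 3 at 10 days (Pygm, Phkb and Phkg1) and 4 at 30 and at 60 days, when Phka1 joined them. Higher genes numbered 1 at 10 days (Phka2), 3 at 30 days (Pygb, Pygl and Phka2) and 2 at 60 days (Pygb and Pygl). The medians of the 7 log2 fold changes were 0.16, -1.84 and -1.54. Of all tested genes, 29.4%, 30.9% and 29.1% were lower and 33.3%, 33.7% and 29.9% higher at these times. With library totals 2, 4 and 4 of the 7 were lower and 4, 3 and 3 higher. That scaling called 10.1%, 11.9% and 12.1% of all tested genes lower and 70.05%, 63.1% and 57.8% higher.

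Pygm is the muscle glycogen phosphorylase. Its levels were 15649, 16735, 16000.4 and 14888 CPM at 0 days, 2876, 2496, 2793 and 2253 at 10 days, 2317, 4189, 4723 and 2947 at 30 days and 5120.2, 5733, 6292 and 4674 at 60 days. The unoperated libraries stand apart from all injured ones, and the 10-day libraries lie below the 60-day ones. Against unoperated muscle the log2 fold change was -2.60 ± 0.19 (5.98e-09) at 10 days, -2.16 ± 0.18 (5.29e-08) at 30 days and -1.54 ± 0.18 (2.75e-06) at 60 days, with a rise of 1.07 ± 0.18 (7.47e-05) between 10 and 60 days.

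Pygl, the liver phosphorylase, was present at a low level. Its levels were 1.91, 2.53, 2.77 and 1.82 CPM at 0 days, 2.81, 2.30, 3.03 and 2.03 at 10 days, 4.11, 3.04, 2.64 and 3.42 at 30 days and 4.66, 3.53, 4.68 and 4.36 at 60 days. The 10- and 30-day libraries overlap the unoperated ones, and the 60-day libraries do not. In log2 terms the change was 0.16 ± 0.19 (0.47) at 10 days, 0.54 ± 0.19 (0.02) at 30 days and 0.92 ± 0.19 (0.000624) at 60 days. With library totals it was also called at 10 days, at 0.82 (adjusted p 0.0015). The 30-day call was lost without replicate 1 or 4 at 0 days and without replicate 1 at 30 days, at 0.42 to 0.48 (adjusted p 0.0529 to 0.0770). Thinning all libraries to the smallest total lost this call too, at 0.49 (adjusted p 0.0664).

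Pygb, the brain phosphorylase, changed by 0.63 ± 0.18 (0.00698) at 30 days and 0.59 ± 0.19 (0.0127) at 60 days. At 10 days it was 0.18 ± 0.19 (0.411), and 0.84 with library totals (adjusted p 0.00113). The 60-day call was lost without replicate 4 at 60 days, at 0.41 (adjusted p 0.0543). The log2 ratio of Pygm to Pygb changed by -2.80 at 10 days and -2.12 at 60 days, and that of Pygm to Pygl by -2.78 and -2.48, each with an exact permutation p of 0.0286.

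Phosphorylase kinase, the calcium-dependent switch of phosphorylase, is built from alpha, beta, gamma and calmodulin subunits, and its muscle alpha subunit followed another course from the enzymes above. Phka1 had levels of 641, 556, 566 and 529 CPM at 0 days, 626, 861, 587 and 503 at 10 days, 109, 143, 130.4 and 124 at 30 days and 138, 77.6, 85.2 and 66.3 at 60 days. The 10-day libraries overlap the unoperated ones, and the 30- and 60-day libraries lie well below both. Its log2 fold change was 0.17 ± 0.19 (0.457) at 10 days, -2.18 ± 0.20 (1.81e-07) at 30 days and -2.64 ± 0.21 (5.56e-08) at 60 days. With library totals the 10-day value was 0.82 and called higher (adjusted p 0.000361). The difference between 60 and 10 days was -2.81 ± 0.21 (3.50e-08).

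Phkb, the beta subunit shared by tissues, fell from 404 ± 34.4 CPM at 0 days to 299 ± 39.2 CPM at 10 days, 113 ± 15.97 CPM at 30 days and 94.3 ± 31.7 CPM at 60 days. The 10-day change of -0.43 ± 0.18 (0.0419) was near the threshold and turned to 0.22 (not called) with library totals. It was lost in 9 of the 16 fits that left out 1 library (each 0-day library, replicates 1, 3 and 4 at 10 days, and replicates 3 and 4 at 30 days), at -0.46 to -0.36 (adjusted p 0.0501 to 0.117). The 10-day call was lost too with upper-quartile factors (-0.38, adjusted p 0.0552) and without the low-count filter (-0.43, adjusted p 0.0519). Later changes were -1.84 ± 0.18 (3.82e-07) and -2.10 ± 0.18 (1.83e-07). Phkg1, the muscle catalytic subunit, changed by -1.93 ± 0.15 (2.53e-08), -2.31 ± 0.16 (6.51e-09) and -1.72 ± 0.15 (2.13e-07) at the 3 times, and its 60-day libraries overlap those at 10 days.

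Phka2, the alpha subunit known from liver, rested on few fragments, 4 to 7 in each unoperated library and 17 to 37 at 10 days. Its levels were 0.394, 0.147, 0.268 and 0.192 CPM at 0 days, 1.07, 1.05, 0.560 and 0.584 at 10 days, 0.531, 0.522, 0.480 and 0.764 at 30 days and 0.369, 0.224, 0.5261 and 0.356 at 60 days. All 10-day and 30-day libraries lie above the unoperated ones. Its changes of 1.74 ± 0.36 (0.000454) at 10 days and 1.23 ± 0.37 (0.00885) at 30 days were the largest rises of the set at those times. No unoperated library reached the filter's minimum count of 10, so Phka2 was tested only through injured libraries. A gene that enters in this way can hardly be called lower, so its rises, also where counted above, are not support for a rise. The 60-day estimate of 0.60 ± 0.42 (0.23) was not called, and was 0.995 and called with library totals (adjusted p 0.0424). Within libraries the log2 ratio of Phka1 to Phka2 changed by -1.49 at 10 days, -3.36 at 30 days and -3.26 at 60 days (exact permutation p 0.0286 each).

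On the side of glycogen synthesis 6 of 7 genes were tested, of which 5, 5 and 4 were lower at 10, 30 and 60 days, with median log2 fold changes of -1.17, -0.91 and -0.51. With library totals 4, 3 and 3 of the 6 were lower and 2, 1 and 1 higher, beside the shares of all tested genes given above. The genes lower at all 3 times were Gyg1, Ugp2, Ppp1r3a and Ppp1r3d, and the fifth at 10 and 30 days was Gys1. Gbe1 was the 1 gene called higher, at 10 days.

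Gys1 is the muscle glycogen synthase. Its levels were 564, 645, 589 and 591 CPM at 0 days, 315, 216, 190.4 and 199 at 10 days, 285, 429, 429.5 and 349.9 at 30 days and 508, 464, 497 and 401 at 60 days. The 10-day libraries were the lowest group and no injured library reached the unoperated range. The log2 fold change was -1.38 ± 0.15 (9.50e-07) at 10 days and -0.68 ± 0.15 (0.001) at 30 days, the latter -0.19 and not called with library totals (adjusted p 0.193). The 60-day estimate of -0.35 ± 0.15 (0.0547) was not called, turned to 0.049 with library totals (adjusted p 0.751), and passed the threshold in 3 of the 16 fits that left out 1 library (without replicates 1 or 3 at 10 days or replicate 1 at 30 days, -0.36 in each). It also passed with DESeq2 (-0.36, adjusted p 0.0407), without the low-count filter (-0.38, adjusted p 0.0474) and in the fit of the 2 groups (-0.33, adjusted p 0.0095).

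Ugp2, which makes the UDP-glucose used by glycogen synthase, fell from 833 ± 40.8 CPM to 377 ± 30.8 CPM at 10 days and 399.8 ± 54.0 CPM at 60 days. The changes were -1.14 ± 0.11 (1.22e-07), -1.37 ± 0.11 (2.49e-08) and -1.06 ± 0.11 (6.28e-07) at the 3 times, and 0.08 ± 0.11 (0.512) between 10 and 60 days, where the groups overlap. Ppp1r3a, the muscle subunit that brings protein phosphatase 1 to glycogen, changed by -1.19 ± 0.09 (1.30e-08), -1.14 ± 0.09 (2.96e-08) and -0.67 ± 0.09 (1.41e-05). Ppp1r3d, a related targeting subunit, changed by -1.58 ± 0.20 (3.93e-06), -1.18 ± 0.20 (8.14e-05) and -0.93 ± 0.20 (0.00088).

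Gyg1, glycogenin, which primes new glycogen, had small fold changes. Its estimates of -0.29 ± 0.08 (0.00502), -0.42 ± 0.08 (0.000259) and -0.24 ± 0.08 (0.0169) turned to 0.37, 0.074 and 0.17 with library totals, the first of them called. The 60-day call was also lost without replicates 3 or 4 at 0 days and without replicates 2, 3 or 4 at 60 days, at -0.21 to -0.20 (adjusted p 0.0519 to 0.0636). With upper-quartile factors it was lost at -0.10 (adjusted p 0.270), and in the fit of the 2 groups at -0.22 (adjusted p 0.0537). Gbe1, the branching enzyme, was higher at 10 days, from 152 ± 2.77 to 233 ± 19.2 CPM, 0.61 ± 0.10 (5.41e-05), and not called at 30 days, at -0.01 ± 0.10 (0.964), which became 0.48 and called with library totals (adjusted p 9.78e-05). Its 60-day estimate of 0.21 ± 0.10 (0.0765) was not called, but was with library totals (0.62, adjusted p 1.35e-05), with upper-quartile factors (0.36, adjusted p 0.00555) and without replicate 4 at 60 days (0.33, adjusted p 0.00819).

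Pgm1 joins glycogen to glycolysis by interconverting glucose 1-phosphate and glucose 6-phosphate. It changed by -1.25 ± 0.10 (1.55e-08), -0.98 ± 0.10 (3.29e-07) and -0.90 ± 0.10 (1.22e-06), and rose by 0.35 ± 0.10 (0.00513) between 10 and 60 days, a call lost with library totals (0.096, adjusted p 0.32).

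**Figure D5:**
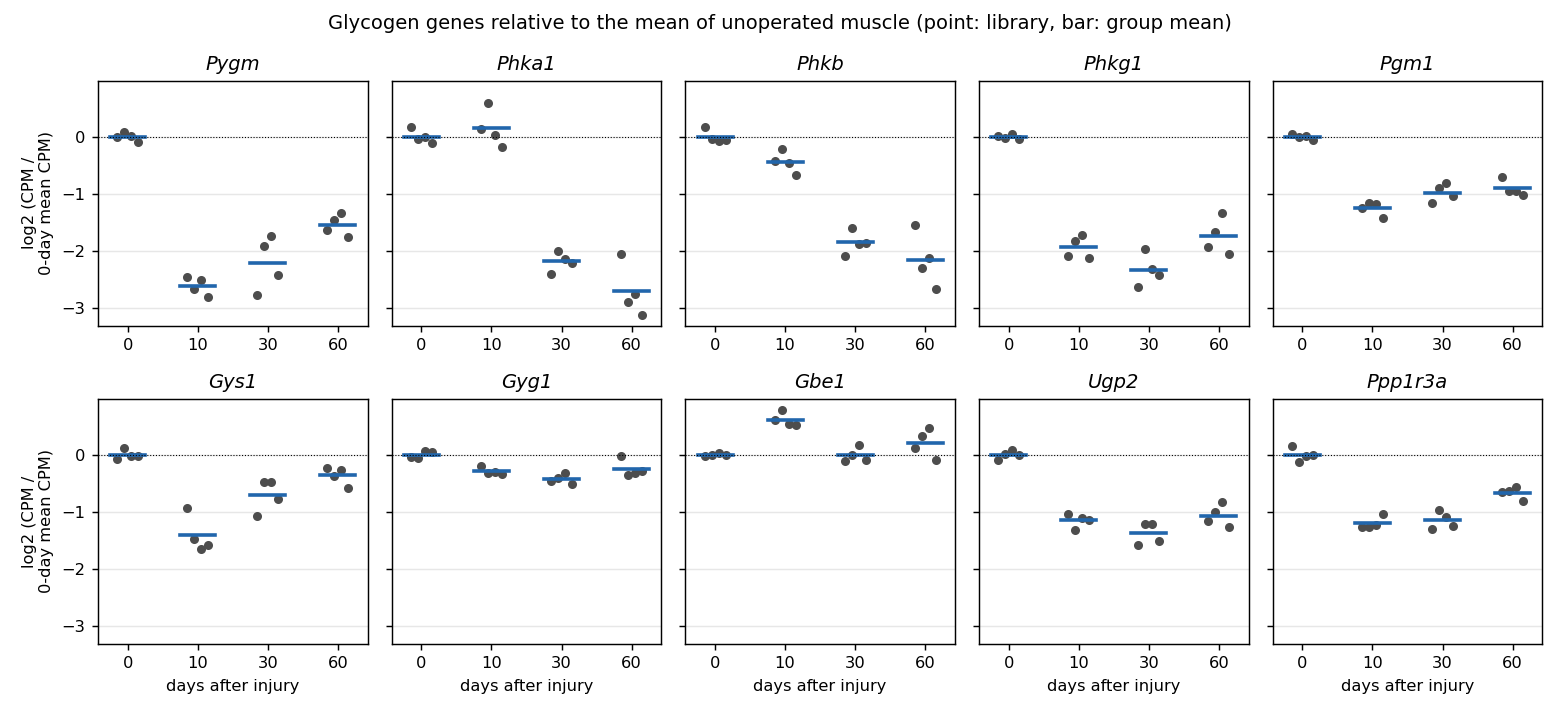
Log2 of CPM over the mean CPM of unoperated muscle (vertical axis) for 10 glycogen genes at 0, 10, 30 and 60 days, drawn at equal spacing. Points are libraries and blue bars group means: Pygm is lowest at 10 days, Phka1 and Phkb fall after 10 days, and Gyg1 stays close to the 0 line.

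Transcripts of the phosphorylase gene fell further than those of the synthase gene. The log2 ratio of Gys1 to Pygm was -4.79, -4.70, -4.76 and -4.65 at 0 days, -3.19, -3.53, -3.87 and -3.50 at 10 days, -3.03, -3.29, -3.46 and -3.07 at 30 days and -3.33, -3.63, -3.66 and -3.54 at 60 days. It was higher by 1.203 ± 0.14 (SE) at 10 days, 1.52 ± 0.11 at 30 days and 1.19 ± 0.08 at 60 days, each with an exact permutation p of 0.0286 and no overlap between groups. Between 60 and 10 days it differed by -0.018 ± 0.16 (exact permutation p 0.943). As shares of all fragments, the breakdown genes went from 1.30% ± 0.0593 at 0 days to 0.437% ± 0.0452 at 10 days, most of it Pygm, and the synthesis genes from 0.230% ± 0.00221 to 0.205% ± 0.0113. At 30 days, when both were lowest, the shares were 0.409% ± 0.101 and 0.180% ± 0.0110, and at 60 days 0.580% ± 0.0637 and 0.210% ± 0.00849. Shares carry no scaling beyond the library total. After TMM scaling, 5 of the 6 tested synthesis genes were lower at 10 days. Transcript ratios do not give enzyme activity or glycogen content, which were not measured here.

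Other genes of the pathway, outside the 38, were followed on a list of 27, of which 24 were in the table and 16 were tested. At 10 days 3 were higher (Hk3, Stbd1 and Adpgk) and 4 lower (Fbp2, Gpd2, Nhlrc1 and Pgm2l1). At 30 days 4 were higher (Hk3, Pklr, Stbd1 and Adpgk) and 9 lower. At 60 days 4 were higher (Hk1, Hk3, Pklr and Adpgk) and 9 lower. Of all tested genes, 33.3%, 33.7% and 29.9% were called higher at these times and 29.4%, 30.9% and 29.1% lower. The 10-day counts are not read as a trait of this list. These calls were not counted with library totals, and the direction of a small change, such as -0.55 ± 0.07 for Pgm2l1 at 10 days, can depend on the scaling. Pklr averaged 0.152 ± 0.0964 CPM (SD, n = 4) at 0 days, near the level of 3 fragments. Fbp2, the muscle fructose bisphosphatase that runs against phosphofructokinase, changed by -4.90 ± 0.50 at 10 days (5.25e-07) and by 5.00 ± 0.50 between 10 and 60 days (7.03e-07). Gpd2, the mitochondrial partner of Gpd1 in the glycerol phosphate shuttle, changed by -2.09 ± 0.18 at 10 days (7.35e-08).

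Hk3, a hexokinase of blood cells, averaged 0.0575 ± 0.0226 CPM (SD, n = 4) at 0 days, under the level of 3 fragments in any library, and 0.978 ± 0.615 CPM at 10 days (adjusted p 0.000718). With so little at 0 days, Hk3 too was tested only through injured libraries. Between 10 and 60 days 3 of the 16 rose (Fbp2, Hk1 and Pgm2) and 7 fell, beside 29.1% and 31.9% of all tested genes.

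Markers of cell types moved over the same times. Their calls, here and in the next paragraph, use TMM scaling and were not counted with library totals. Of all tested genes, 29.4%, 30.9% and 29.1% were called lower at 10, 30 and 60 days, and 33.3%, 33.7% and 29.9% higher. The 9 muscle fibre markers summed to 259612 to 280433 CPM in unoperated libraries, 55229 to 59586 CPM at 10 days, 88747 to 137185 CPM at 30 days and 128558 to 146862 CPM at 60 days, and 9 of 9 were lower at 10 days and 7 of 9 at 30 and at 60 days. Myh2, a myosin of oxidative fast fibres, was the 1 fibre marker higher at 60 days, at 0.63 ± 0.23 (0.0271). The 9 macrophage and leukocyte markers summed to 23.7 to 39.1 CPM at 0 days and 77.7 to 105 CPM at 10 days, with 7 of 9 higher, then to 106 to 138 CPM at 30 days and 80.8 to 152 CPM at 60 days, with 9 of 9 higher at both. The 6 fibroblast markers went from 455 to 974 CPM at 0 days to 928 to 2856 CPM at 10 days, with 5 of 6 higher. They were at 1450.2 to 2414 CPM at 30 days and 1285 to 2786 CPM at 60 days, with 6 of 6 higher at both. The 5 endothelial markers were 5 of 5 lower at 10 days, at 143 to 210.0 CPM against 248 to 291 CPM at 0 days, 213 to 233 CPM at 30 days and 224 to 334 CPM at 60 days. Their 10-day log2 fold changes ran from -1.30 to -0.42, with a median of -0.51. Library totals move the median of all tested genes at 10 days from 0.061 to 0.72. The direction of the smaller endothelial changes can therefore depend on the scaling.

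The 5 adipocyte markers, at 15.2 to 73.1 CPM at 0 days, were 0 of 5 called at 10 and at 30 days (0 at an unadjusted p under 0.05 and 0 by DESeq2) and 5 of 5 higher at 60 days, at 86.4 to 192 CPM. They summed to 26.4 to 49.8 CPM at 10 days and 34.0 to 60.1 CPM at 30 days. The 5 Schwann cell markers, at 69.4 to 108 CPM at 0 days, were 2 of 5 lower at 10 days (33.7 to 58.8 CPM), 2 of 5 higher at 30 days (74.9 to 111 CPM) and 5 of 5 higher at 60 days (129.7 to 265 CPM). Of 4 erythroid markers 2 were in the table, both lower at 10 days, at 108 to 141 CPM against 347 to 1097 CPM at 0 days, 145 to 373 CPM at 30 days and 172 to 471 CPM at 60 days. No defining marker of the lists found in the table was at 0 in all libraries. The part of these cell types in the changes of the glycolytic and glycogen genes was not tested.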

How the data were processed

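Messenger RNA libraries of rat supraspinatus muscle (TruSeq mRNA kit, per the labels) form 4 groups of 4, grouped by the labelled time. The authors deposited 1 table of estimated counts: raw fragments per gene, 233 of 17147 genes with a fractional value. The submitters' processing notes name bcl2fastq 1.8.4, FastQC, TopHat2 2.0.9, Bowtie2 2.1.0.0, Cufflinks, Cuffdiff 2.1.1 and rn5, with no settings or strandedness.

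Values were rounded. edgeR 4.0.16 (R 4.3.3) kept 11658 genes (filterByExpr), scaled by TMM, and fitted 1 robust quasi-likelihood model to all 16 libraries. SE is the log2 fold change divided by the square root of F. Ratios were compared by two-sided exact permutation (scipy 1.17.1). Methods were tested on simulated data. Alternatives were RLE, upper-quartile and total scaling, DESeq2 1.42.0, no filter, 2-group fits, a replicate block, an adjusted p under 0.01, leaving out each library and, added after seeing the data, thinning. Floors cover counting error only.

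The 38 genes and all lists were chosen with earlier results of these data known. Each of the 38 could be named. Values in every library are given for the 3 isoform pairs, Pygm, Pygl, Gys1, Gpd1 and the largest changes. Of other pathway genes, the 3 largest 10-day changes and any in counts of 5 or fewer are named. Of that list, 1 gene is not reported here. Protein sequences were not used here.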

Additional observations from a re-analysis of the deposited data

Results flagged for a closer look

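In 7 of the 184 sets of 4 libraries examined (36 genes and 10 ratios at each of the 4 times), 1 library lay far from the other 3 by Dixon's 95% criterion. Chance gives about 1 in 20 such sets. At 10 days, replicate 1 had the highest level of Gpi, 361.5 CPM against 277 to 284 CPM, and of Tpi1, 928 CPM against 678 to 699 CPM. Pfkfb2 at 10 days was highest in replicate 2, at 9.76 CPM against 8.56 to 8.70 CPM, and Ppp1r3a in replicate 4, at 380.01 CPM against 326 to 335 CPM. At 30 days Pfkfb3 was at 7.01 CPM in replicate 1 against 4.60 to 4.70 CPM, and Ppp1r3d at 8.04 CPM in replicate 3 against 5.14 to 5.59 CPM. At 0 days Phkb was at 455 CPM in replicate 1 against 382 to 394 CPM. The calls of these 7 genes, other than that of Phkb at 10 days, did not change without those libraries.

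The estimates of Pfkl, Pfkp, Eno1 and Phka1 had opposite signs at 10 and at 60 days against unoperated muscle, with a called difference between 60 and 10 days. The log2 difference was -0.59 for Pfkl, 1.09 for Pfkp, 0.41 for Eno1 and -2.81 for Phka1. Pfkl and Pfkp are subunits of the same enzyme and moved in opposite directions over this interval. The 60-day estimates of Pfkl and Eno1 lay close to 0, and with library totals the Eno1 estimate at 10 days turned positive and its difference between 60 and 10 days was 0.16 and not called. The 10-day estimates of Pfkp (-0.29, edgeR adjusted p 0.199) and Phka1 (0.17, edgeR adjusted p 0.457) were not called. With library totals Pfkp at 10 days was 0.37 and Pfkl at 60 days 0.39, so Pfkl, Pfkp and Eno1 had no change of sign under that scaling. Phka1 at 10 days was -0.0034 without replicate 2 of that group.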

How the results depend on the processing

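Library totals were the setting that changed most. They gave 11, 10 and 11 higher genes at 10, 30 and 60 days, and medians of -0.66, -0.58, -0.22 and, for 60 against 10 days, 0.39. Estimates that changed sign were, at 10 days, Eno1 0.27, Gyg1 0.37, Pfkfb4 0.0041, Pfkp 0.37 and Phkb 0.22. At 30 days they were Gbe1 0.48 and Gyg1 0.074, and at 60 days Gyg1 0.17, Gys1 0.049, Ldhb 0.39 and Pfkl 0.39. For 60 against 10 days they were Gyg1 -0.21, Pfkfb4 -0.13, Phkg1 -0.046 and Ugp2 -0.17. Upper-quartile factors gave medians of -1.26 at 10 days, -0.49 at 60 days and 0.73 for 60 against 10 days, and changed the sign of Gbe1 at 30 days (0.12) and of Ldhb and Pfkl at 60 days (0.12 and 0.12). Thinning changed that of Gbe1 at 30 days (0.011) and Pfkl at 60 days (0.0018), and fits of 2 groups that of Ldhb at 60 days (0.0017), none of them called. The cause was not tested.

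Over the 16 fits that left out 1 library, the numbers lower ran from 25 to 26, 26 to 26 and 22 to 25 at 10, 30 and 60 days, and the medians from -1.41 to -1.28, -1.17 to -0.97 and -0.71 to -0.57. Estimates near 0 whose sign turned in at least 1 of these fits were Phka1 at 10 days (-0.0034 to 0.27), at 30 days Gbe1 (-0.067 to 0.025), Pfkl (-0.0042 to 0.17) and Pfkp (-0.066 to 0.23), at 60 days Eno1 (-0.0060 to 0.078), Ldhb (-0.10 to 0.056) and Pfkl (-0.093 to 0.081), and for 60 against 10 days Gyg1 (-0.034 to 0.083) and Ugp2 (-0.0010 to 0.17), none of them called in the fit to all libraries. Of the 144 gene comparisons, 104 kept direction and call with library totals, 136 with upper-quartile factors, 142 with RLE factors, 142 with DESeq2, 141 without a filter, 139 in fits of 2 groups and 141 after thinning. At an adjusted p under 0.01, 25, 25 and 21 genes were lower at 10, 30 and 60 days. Pygb for 60 against 10 days passed the threshold with DESeq2 (0.44), RLE factors (0.44) and upper-quartile factors (0.50), and Gys1 at 60 days with DESeq2 (-0.36). The fits with a replicate block (the suffix of each column) gave 26, 26 and 24 lower genes and left the call of all 144 gene comparisons in place. Over 24 pairs of libraries with the same suffix the mean correlation of deviations was 0.0013, with a range of -0.24 to 0.22. Of the 16 libraries, 3 correlated best with their own suffix. No pairing by suffix was seen, but so few libraries cannot exclude it. Depth limits Phka2, with 4 to 7 fragments in each unoperated library.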
